A study of Mus musculus with 15 samples.

Results

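The genes described are the tissue inhibitors of metalloproteinases Timp1, Timp2, Timp3 and Timp4, the matrix metalloproteinases Mmp2 and Mmp14, and the secreted ADAMTS proteases Adamts1, Adamts2 and Adamts7, measured in mouse hearts. They were chosen by name, as a set of extracellular proteases with their inhibitors, with earlier results of these data known. Counts among them are therefore not those of a random set of genes. The FPKM values (fragments counted per length of transcript and per depth of library) of their Ensembl transcripts were summed per gene. Of 10 genes named, 9 were found among 12391 genes with a named transcript in every file. Adamts4 was not analysed here. RNA sequencing after rRNA depletion was run on 15 libraries of heart tissue from male C57BL/6 mice, 5 mice per group. AngII+QDG mice received angiotensin II and QDG, a treatment known from the labels by this abbreviation alone. AngII mice received angiotensin II, a hormone that constricts vessels and loads the heart, and for Control mice the labels name no agent. The sources used here give neither the age of the mice nor the dose, route and duration of either agent. Whether the tissue was whole heart or a chamber is not stated in them either.

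TIMPs are small secreted proteins that block the active site of metalloproteinases, and the level of protease against inhibitor helps to set how fast the matrix between heart cells is turned over. Mmp2 encodes gelatinase A, which degrades basement membrane collagen and denatured collagen. Mmp14 encodes a membrane-bound collagenase that, together with TIMP2, activates pro-MMP2 at the cell surface. TIMP3 stays bound to the matrix and inhibits ADAM and ADAMTS proteases as well as MMPs. ADAMTS1 cleaves proteoglycans such as versican, ADAMTS2 removes the aminopropeptide of procollagen, and ADAMTS7 cleaves the cartilage oligomeric matrix protein COMP. TIMP4 is the family member known for its high level in heart.

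In AngII hearts, 3 of the 9 genes were called higher than in Control hearts and 1 lower, where 11.9% of all genes tested were called higher and 1.48% lower. Timp3 was 1.95-fold, Adamts1 3.37-fold and Mmp2 1.70-fold the Control mean, while Adamts7 was lower at 0.367-fold. The other 5 did not pass the test. The Mmp2 call was lost when any of 12 of the 15 libraries was left out. All 4 calls were lost when a measure of library make-up, described below, was made a covariate. That measure did not overlap between Control and AngII libraries, so this fit cannot separate it from group. In AngII+QDG hearts Timp3 and Adamts1 were likewise higher than in Control, where 16% of all genes tested were called higher and 3.31% lower. Adamts7 was called lower there, also when compared on transcripts listed in all files. These 3 calls too were lost with the covariate, under the same limit. None of the 9 genes differed between AngII+QDG and AngII hearts at an adjusted p under 0.05. The summed protease level relative to the summed TIMP level overlapped between all groups.

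Timp3 and Adamts1 were the inhibitor and the protease called higher than Control in both angiotensin groups, and the bases just before their start sites are shown for that reason. They come from RefSeq on GRCm38.p6, in which 7 of the 9 genes had a promoter entry. Capitals mark matches to any of 5 motifs searched on both strands: the AP-1 site TGANTCA, the GC box GGGCGG, the TATA box TATAAA, the TEAD site CATTCC and the CArG box. The Adamts1 stretch is the minus strand of chr16:85803114-85803363, and that of Timp3 is the plus strand of chr10:86300162-86300371.
Adamts1: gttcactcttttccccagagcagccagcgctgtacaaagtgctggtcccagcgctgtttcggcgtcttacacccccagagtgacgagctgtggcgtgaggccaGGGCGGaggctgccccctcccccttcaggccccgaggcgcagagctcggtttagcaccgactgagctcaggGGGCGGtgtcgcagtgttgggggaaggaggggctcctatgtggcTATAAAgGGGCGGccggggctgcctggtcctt
Timp3: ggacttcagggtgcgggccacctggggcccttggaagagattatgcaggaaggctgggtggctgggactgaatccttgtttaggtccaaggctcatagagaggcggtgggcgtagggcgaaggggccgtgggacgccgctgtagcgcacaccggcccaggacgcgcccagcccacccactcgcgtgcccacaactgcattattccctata
The Adamts1 stretch held 3 GC boxes, starting at -147, -76 and -25 from the start site, and a TATA box starting at -32. No 2 of these matches overlapped. The Timp3 stretch held no match, and its only GC box began at -15 from the RefSeq start, beyond the stretch shown. Among 32851 RefSeq promoters searched over the same 250 bases, 32.7% held a GC box, 12.4% a TATA box, 12.6% a TEAD site, 6.75% an AP-1 site and 1.47% a CArG box. These are matches of letters, and no binding was measured.

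At low levels the FPKM values lay on whole steps. With 1 step taken as 1 fragment, the libraries held 51.6 to 78.3 times 1000000 fragments. Depth did not separate the groups in exact two-sided permutation tests (smallest p = 0.294, 5 libraries per group). The libraries differed in another measure, the mean log2 level of coding transcripts shorter than 1000 nt minus that of transcripts of at least 3000 nt. It was 1.15 ± 0.13 in AngII+QDG, 1.19 ± 0.08 in AngII and 1.67 ± 0.26 in Control libraries (SD, n = 5 each). Both angiotensin groups were lower than Control (exact permutation p = 0.00794 each, the smallest that 5 against 5 can give, and 0.0238 adjusted over 9 tests). The lowest Control library stood at 1.37, above the highest of AngII at 1.33 and of AngII+QDG at 1.25. Against Control, a fit with this measure as a covariate therefore cannot separate the measure from group. Calls lost in that fit do not decide between them. Transcripts listed at 0 made up 5.53% ± 0.768 in AngII+QDG, 5.94% ± 0.955 in AngII and 12.1% ± 5.19 in Control libraries. This too differed from Control (exact permutation p = 0.00794 for AngII+QDG and 0.0159 for AngII, adjusted to 0.0238 and 0.0357), with Control 5 at 20.6%. On the short-against-long measure Control 3 and Control 5 stood apart at 1.93 each. Results of the 9 genes against Control are therefore given with and without them where it matters. Over all 12267 genes tested the median log2 fold change was 0.20 in AngII and 0.18 in AngII+QDG against Control, so small rises against Control lie close to that of the typical gene. All 7 cardiomyocyte markers looked at were present in every library, as the tissue label requires.

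**Figure D1:**
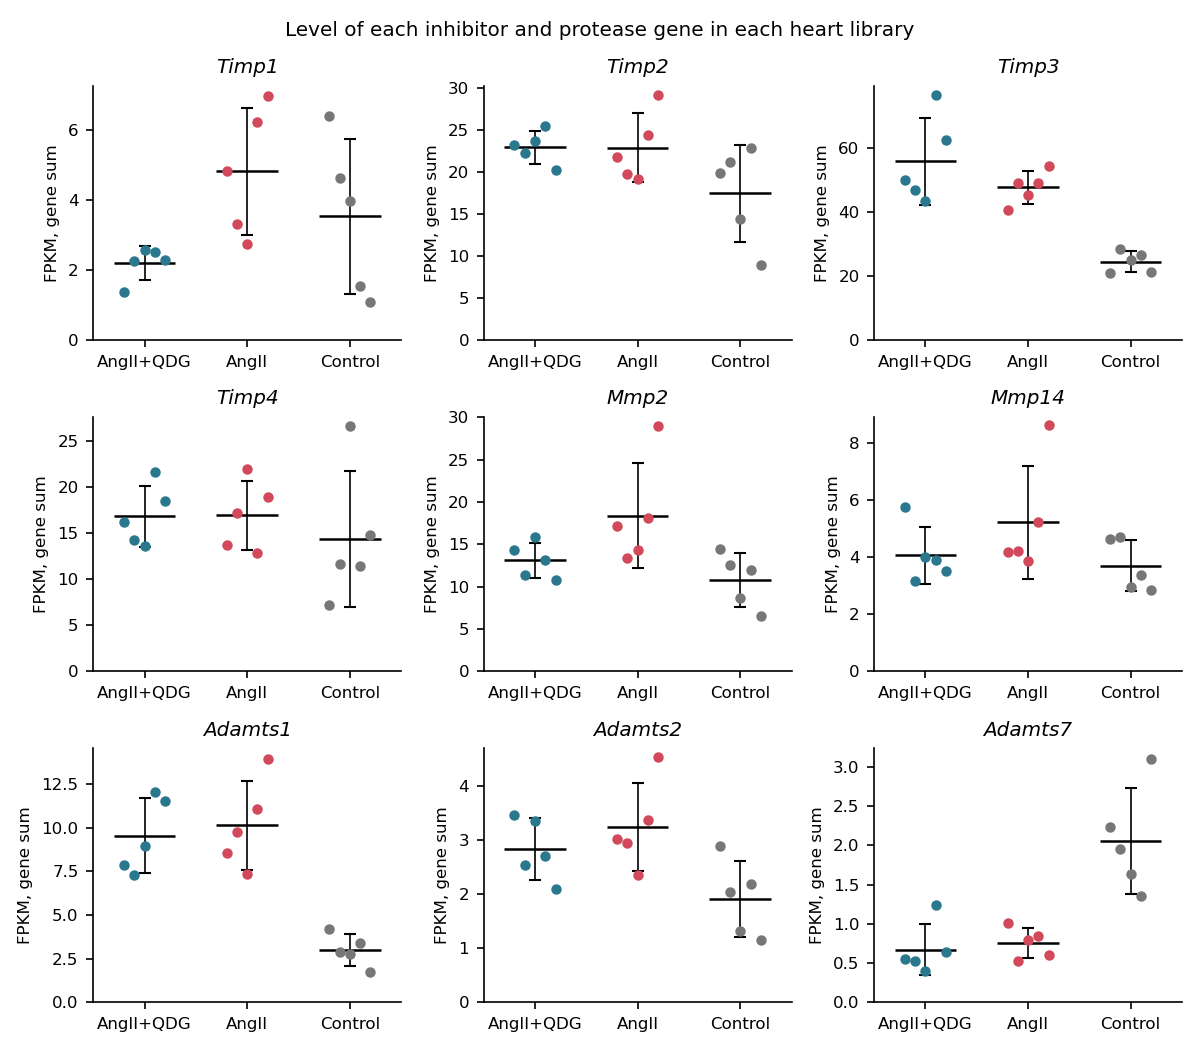
Gene level in FPKM (vertical axis, linear, from 0) of the 9 genes in each heart library, AngII+QDG left, AngII middle, Control right. Points are libraries and bars are the mean ± SD of 5. Timp3 and Adamts1 lie higher in both angiotensin groups than in Control, Adamts7 lies lower, and the other 6 genes overlap between AngII and Control. The AngII+QDG values of Adamts7 lack its coding transcript, which was not listed in those files.

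By level, Timp3 had the highest mean FPKM of the 9 genes in each group and Timp2 the second highest. In AngII+QDG hearts the order went on with Timp4, Mmp2, Adamts1, Mmp14, Adamts2, Timp1 and Adamts7. In AngII hearts it went on with Mmp2, Timp4, Adamts1, Mmp14, Timp1, Adamts2 and Adamts7. In Control hearts it went on with Timp4, Mmp2, Mmp14, Timp1, Adamts1, Adamts7 and Adamts2. Most neighbours in these orders overlapped from library to library. The steps without overlap were Timp3 over Timp2, Adamts1 over Mmp14 and Timp1 over Adamts7 in AngII+QDG, Timp3 over Timp2 and Adamts2 over Adamts7 in AngII, and Mmp2 over Mmp14 in Control.

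Timp3 was the inhibitor that was called in the comparisons with Control. It had 49.8, 46.9, 43.4, 76.4 and 62.3 FPKM in the AngII+QDG hearts, 40.6, 49.0, 45.3, 49.0 and 54.3 FPKM in the AngII hearts, and 20.9, 28.3, 25.0, 26.6 and 21.4 FPKM in the Control hearts. Every angiotensin library lay above every Control library, while AngII+QDG and AngII overlapped. The log2 fold change, on the log2(FPKM + 1) scale used throughout, was 0.94 ± 0.15 (SE) for AngII against Control (limma adjusted p = 0.00714) and 1.14 ± 0.15 for AngII+QDG against Control (adjusted p = 0.00116). Between AngII+QDG and AngII it was 0.20, with a 95% interval of -0.12 to 0.51. Without Control 3 and Control 5 the rise in AngII was still called (adjusted p = 0.0468). With the short-against-long measure as a covariate it was 0.86 and no longer called (adjusted p = 0.672). The 1 listed Timp3 transcript (ENSMUSG00000020044, chromosome 10, 86300372 to 86349506, plus strand, GRCm38) shares 1733 exon bases with Syn3 on the other strand, and the sources used here do not say whether counting used strand.

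Timp3 also held a larger share of the inhibitor transcripts. Its share of the summed TIMP FPKM was 56.5% ± 3.75 in AngII+QDG, 51.6% ± 2.18 in AngII and 41.2% ± 4.12 in Control hearts (SD, n = 5 each). The lowest AngII share was 49.6% and the highest Control share 46.2%. Summed over 4 genes, TIMP transcripts stood at 97.8 ± 17.6 FPKM in AngII+QDG, 92.3 ± 10.4 FPKM in AngII and 59.8 ± 9.47 FPKM in Control. In bulk hearts, fewer cells of a type and less RNA per cell cannot be told apart, and the same holds for more of either.

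Timp1, the inducible inhibitor known to rise with tissue injury and inflammation, was the member with the smallest p between AngII+QDG and AngII. It had 1.37, 2.26, 2.58, 2.53 and 2.30 FPKM in the AngII+QDG hearts, 4.85, 3.31, 2.76, 6.23 and 6.97 FPKM in the AngII hearts, and 6.41, 4.63, 3.97, 1.57 and 1.10 FPKM in the Control hearts. All AngII+QDG libraries lay below all AngII libraries, by a margin of 2.58 against 2.76 FPKM at the nearest, and the Control libraries spread across both. The log2 fold change of AngII+QDG against AngII was -0.82 ± 0.32 (unadjusted p = 0.0225, limma adjusted p = 0.934 over 12267 genes), so it did not pass the test. The AngII+QDG mean was 0.458 of the AngII mean. Against Control, AngII gave 0.46 ± 0.32 (adjusted p = 0.340) and AngII+QDG gave -0.36 ± 0.32 (adjusted p = 0.459).

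The Timp1 value was the sum of a pair of coding transcripts. ENSMUST00000115342 averaged 0.726 ± 0.533 FPKM in AngII+QDG, 2.11 ± 1.18 FPKM in AngII and 0.798 ± 0.692 FPKM in Control hearts. ENSMUST00000009530 averaged 1.48 ± 0.885, 2.71 ± 1.63 and 2.74 ± 1.84 FPKM in AngII+QDG, AngII and Control hearts. Neither was called in any comparison at the transcript level (smallest adjusted p = 0.170), where 3.47% of 21550 transcripts were called in AngII against Control, 0% in AngII+QDG against AngII and 9.01% in AngII+QDG against Control. With 63 to 147 recovered fragments in the AngII+QDG libraries, Timp1 was the inhibitor with the fewest fragments behind it, and the division of reads between its near-identical transcripts is not described by the sources used here. The gene (ENSMUSG00000001131, chromosome X, 20870166 to 20874735) lies inside Syn1 on the other strand, with no exon base shared.

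Timp2 and Timp4 did not pass the test in any comparison. Timp2, which both inhibits MMP2 and takes part in its activation, averaged 23.0 ± 1.95 FPKM in AngII+QDG, 22.9 ± 4.10 FPKM in AngII and 17.5 ± 5.71 FPKM in Control hearts. Its log2 fold change against Control was 0.42 ± 0.20 in AngII (adjusted p = 0.166) and 0.44 ± 0.20 in AngII+QDG (adjusted p = 0.141). Control 5 had the lowest Timp2 of all hearts, and without Control 3 and Control 5 these changes were 0.08 and 0.10. Between AngII+QDG and AngII the Timp2 difference was 0.02, with a 95% interval of -0.42 to 0.45. Timp4 averaged 16.9 ± 3.29 FPKM in AngII+QDG, 17.0 ± 3.74 FPKM in AngII and 14.4 ± 7.38 FPKM in Control. The Control hearts alone ranged over 7.27 to 26.7 FPKM for Timp4, wider than either angiotensin group. Its log2 fold change was 0.32 ± 0.26 in AngII against Control (adjusted p = 0.411) and -0.00 between AngII+QDG and AngII, with a 95% interval of -0.55 to 0.55. Without Control 3 and Control 5, where Control 3 was the highest heart, the Timp4 change in AngII against Control was 0.70 (unadjusted p = 0.00491, adjusted p = 0.0883), and with the covariate it was 1.05 (unadjusted p = 0.00941, adjusted p = 0.694). In AngII+QDG against Control these settings gave 0.69 (adjusted p = 0.0506) and 1.11 (adjusted p = 0.453). With single libraries left out, the Timp4 change in AngII against Control spanned 0.12 to 0.56. The genes lie at chromosome 11, 118301069 to 118355740 (Timp2) and chromosome 6, 115241892 to 115252205 (Timp4, which shares 90 exon bases with Syn2 on the other strand).

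Mmp2 was higher in AngII hearts by a call that many settings did not keep. It had 14.3, 11.4, 15.8, 13.1 and 10.9 FPKM in the AngII+QDG hearts, 17.1, 13.4, 14.3, 18.2 and 28.9 FPKM in the AngII hearts, and 14.4, 12.6, 8.73, 12.0 and 6.51 FPKM in the Control hearts. AngII 5 was the highest of all libraries, and the lowest AngII libraries lay within the Control range. AngII against Control gave a log2 fold change of 0.71 ± 0.22 (limma adjusted p = 0.0465). The call was kept when Control 1, Control 4 or AngII 3 was left out and lost when any of the other 12 libraries was, with adjusted p from 0.0379 to 0.104 over the 15. Without AngII 5 the change was 0.54, without Control 5 it was 0.55, and without Control 3 and Control 5 it was 0.42 (adjusted p = 0.258). With the short-against-long measure as a covariate it was 0.16 (adjusted p = 0.933). AngII+QDG stood at 0.29 ± 0.22 against Control (adjusted p = 0.381) and at -0.42 ± 0.22 against AngII (unadjusted p = 0.0736, adjusted p = 0.998), between the other groups in mean level.

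The long coding transcript of Mmp2, ENSMUST00000034187, carried the gene's value. It averaged 12.5 ± 2.15 FPKM in AngII+QDG, 18.1 ± 6.30 FPKM in AngII and 9.89 ± 3.55 FPKM in Control hearts. The short coding transcript of 674 nt had 0.580 ± 0.200 FPKM in AngII+QDG, 0.315 ± 0.212 FPKM in AngII and 0.951 ± 0.555 FPKM in Control. On transcripts, the AngII against Control change was 0.83 for the long form (adjusted p = 0.0783) and -0.54 for the short form (adjusted p = 0.104), and neither was called. The gene is ENSMUSG00000031740 (chromosome 8, 92827291 to 92853420, plus strand).

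Mmp14, the membrane-bound activator of pro-MMP2, did not pass the test. It averaged 4.08 ± 1.00 FPKM in AngII+QDG, 5.23 ± 1.97 FPKM in AngII and 3.71 ± 0.906 FPKM in Control hearts, and all groups overlapped. AngII 5 stood at 8.64 FPKM, above the 3.86 to 5.23 FPKM of the other 4 AngII hearts, and the same heart was highest for Mmp2. The log2 fold change was 0.37 ± 0.20 in AngII against Control (adjusted p = 0.210), -0.27 ± 0.20 in AngII+QDG against AngII and 0.11 ± 0.20 in AngII+QDG against Control, the last turning to -0.15 under quantile normalisation and under median scaling. Without AngII 5 it was 0.21 in AngII against Control and -0.10 in AngII+QDG against AngII. The gene lies at chromosome 14, 54431612 to 54445364.

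Adamts1 was called higher in both comparisons with Control. It had 7.86, 7.29, 8.95, 12.1 and 11.5 FPKM in the AngII+QDG hearts, 8.55, 9.78, 7.35, 11.1 and 14.0 FPKM in the AngII hearts, and 4.22, 2.89, 2.78, 3.41 and 1.73 FPKM in the Control hearts. The highest Control heart lay below the lowest heart of either angiotensin group, and those groups overlapped with each other. The log2 fold change was 1.48 ± 0.20 for AngII against Control (limma adjusted p = 0.00304) and 1.40 ± 0.20 for AngII+QDG against Control (adjusted p = 0.00168). Between AngII+QDG and AngII it was -0.07, with a 95% interval of -0.50 to 0.35. The rise in AngII was called without Control 3 and Control 5 (adjusted p = 0.0242) and was 1.06, not called, with the short-against-long covariate (adjusted p = 0.666). Adamts1 made up 31.6% ± 6.51 of the summed protease FPKM in AngII+QDG, 27.1% ± 2.95 in AngII and 13.9% ± 2.10 in Control hearts. The AngII+QDG sums lack the Adamts7 coding transcript, as described below. The 1 listed Adamts1 transcript belongs to ENSMUSG00000022893 (chromosome 16, 85793827 to 85803113, minus strand), whose upstream bases with GC boxes and a TATA box are shown above.

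Adamts2, the procollagen N-proteinase, lay just outside the threshold. Its mean was 2.84 ± 0.572 FPKM in AngII+QDG, 3.25 ± 0.810 FPKM in AngII and 1.92 ± 0.704 FPKM in Control hearts, with overlap between all groups. The log2 fold change was 0.56 ± 0.18 in AngII against Control (adjusted p = 0.0543), 0.42 ± 0.18 in AngII+QDG against Control (adjusted p = 0.120) and -0.14 ± 0.18 in AngII+QDG against AngII. Leaving out Control 1, Control 4 or AngII 3 brought it past the threshold against Control, with adjusted p of 0.0348, 0.0449 and 0.0420. Without Control 3 and Control 5 it was 0.32 (adjusted p = 0.298), and with the short-against-long covariate 0.0028 (adjusted p = 0.998). The gene spans chromosome 11, 50602084 to 50807573, on the plus strand.

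Adamts7 was the member that was lower in AngII hearts. The gene sums were 0.549, 0.533, 0.400, 1.24 and 0.647 FPKM in the AngII+QDG hearts, 1.01, 0.527, 0.791, 0.849 and 0.610 FPKM in the AngII hearts, and 2.23, 1.96, 1.64, 1.35 and 3.10 FPKM in the Control hearts. Every Control heart lay above every AngII heart. AngII against Control gave a log2 fold change of -0.78 ± 0.16 (limma adjusted p = 0.0149), and 68 to 183 recovered fragments stood behind each AngII value. Without Control 3 and Control 5 it was -0.69 (adjusted p = 0.0547), and with the covariate -0.53 (adjusted p = 0.810), so the call was lost in both.

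For Adamts7 the sets of files were not alike. The coding transcript ENSMUST00000113059 was listed in the AngII and Control files and not in the AngII+QDG files, so the AngII+QDG sums hold the retained-intron transcript ENSMUST00000124441 alone. Compared on that transcript, Adamts7 averaged 0.674 ± 0.330 FPKM in AngII+QDG, 0.530 ± 0.133 FPKM in AngII and 1.27 ± 0.187 FPKM in Control hearts. AngII lay wholly below Control, while the highest AngII+QDG heart, at 1.24 FPKM, overlapped with Control. Restricted to transcripts listed in all files, the log2 fold change was -0.57 ± 0.12 in AngII against Control (adjusted p = 0.0166), -0.46 ± 0.12 in AngII+QDG against Control (adjusted p = 0.0224) and 0.11 ± 0.12 in AngII+QDG against AngII (adjusted p = 0.999). The gene-sum value against Control was -0.86 ± 0.16 in AngII+QDG (adjusted p = 0.00439), and this includes the difference in what was listed. In AngII hearts the coding transcript averaged 0.227 ± 0.0942 FPKM, against 0.788 ± 0.542 FPKM in Control hearts, with overlap. The gene is ENSMUSG00000032363 (chromosome 9, 90163069 to 90208071, plus strand).

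**Figure D2:**
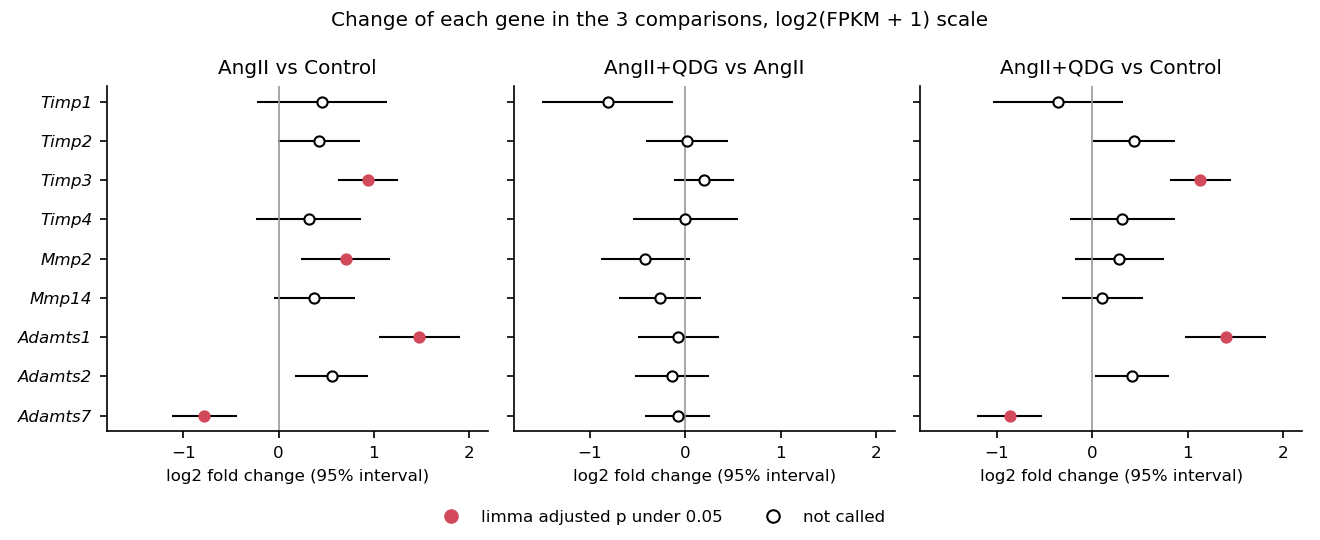
Log2 fold change with its 95% interval (horizontal axis, log2(FPKM + 1) scale) of each gene, with 1 panel per comparison. Filled points passed a limma adjusted p of 0.05. Timp3 and Adamts1 lie to the right and Adamts7 to the left in both comparisons with Control, Mmp2 is filled for AngII against Control alone, and no point is filled for AngII+QDG against AngII. The Adamts7 value of the AngII+QDG comparisons rests on unequal transcript lists.

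Counted together, 3 of the 9 genes were called higher and 1 lower in AngII against Control. Among all 12267 genes tested, 13.4% were called, 11.9% as higher and 1.48% as lower. The median log2 fold change of the 9 was 0.46, beside 0.20 for all genes. Libraries did not overlap for Timp3 and Adamts1, both higher, and for Adamts7, which was lower. Among all genes 11.1% showed no overlap, 10.1% as higher and 1% as lower. Against the median of all genes, Timp3 stood at 0.74, Adamts1 at 1.28, Mmp2 at 0.51 and Adamts7 at -0.98. The split of all calls depended on scaling, with 1457 higher and 181 lower as deposited, 406 higher and 413 lower after quantile normalisation, and 361 higher and 715 lower after median scaling. Timp3, Adamts1 and Adamts7 were called under both scalings, and Mmp2 under neither (adjusted p = 0.0746 and 0.0937).

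For AngII+QDG against AngII, limma called 0 of the 9 genes and 0% of all genes tested. At an unadjusted p under 0.05 there were 578 of 12267 genes, and of the 9 genes Timp1 was among them. Libraries did not overlap for Timp1, lower in AngII+QDG, and for 1.39% of all genes, 0.595% as higher and 0.799% as lower. The median of the 9 was -0.08, beside -0.02 for all genes. The voom fit on recovered fragments also called 0 of the 9, and 1 gene in all. For AngII+QDG against Control, 2 of the 9 were called higher and 1 lower, where 19.4% of all genes were called, 16% as higher and 3.31% as lower, and the median of the 9 was 0.32, beside 0.18. As deposited, 1968 genes were higher and 406 lower in that comparison, and the split was 983 higher and 999 lower after quantile normalisation and 791 higher and 1625 lower after median scaling. Libraries of that comparison did not overlap for Timp3, Adamts1 and the Adamts7 gene sum, and for 14.5% of all genes, 12.8% as higher and 1.73% as lower. These comparisons share groups, so their values are set side by side and not counted as separate evidence.

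**Figure D3:**
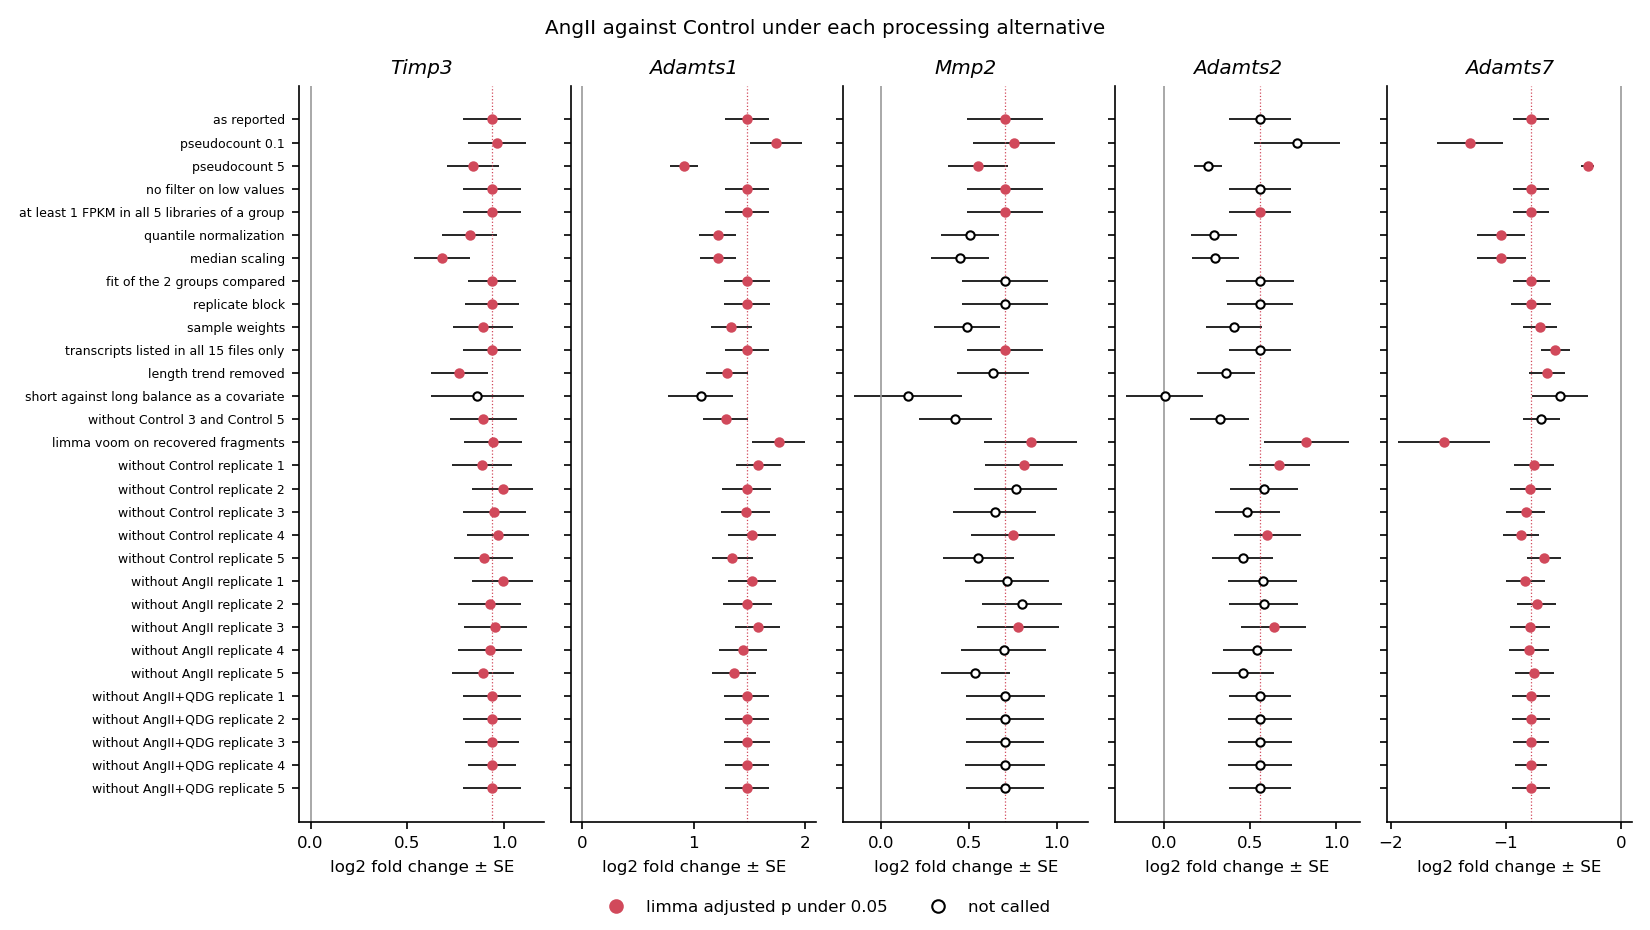
Log2 fold change ± SE of AngII against Control (horizontal axis) for 5 genes under each processing alternative (rows), filled where the limma adjusted p was under 0.05. Timp3 and Adamts1 are filled in every row but the short-against-long covariate, Adamts7 in every row but that covariate and the fit without Control 3 and Control 5, while Mmp2 and Adamts2 switch between filled and open.

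The balance of proteases over inhibitors was computed per library as a ratio of FPKM sums and is given as a description, with no test. Proteases summed to 30.2 ± 3.44 FPKM in AngII+QDG, 37.8 ± 11.2 FPKM in AngII and 21.5 ± 5.24 FPKM in Control hearts. The ratio of proteases to TIMPs was 0.353, 0.290, 0.391, 0.262 and 0.278 in the AngII+QDG hearts, 0.418, 0.346, 0.321, 0.418 and 0.518 in the AngII hearts, and 0.522, 0.367, 0.249, 0.357 and 0.331 in the Control hearts. Group means were 0.315 ± 0.0548 in AngII+QDG, 0.404 ± 0.0770 in AngII and 0.365 ± 0.0990 in Control, and the libraries of all groups overlapped. As differences of mean log2 ratios these are 0.17 for AngII against Control, -0.36 for AngII+QDG against AngII and -0.19 for AngII+QDG against Control. The AngII+QDG sums lack the Adamts7 coding transcript, which was not listed in those files. On transcripts listed in all files the differences were 0.22, -0.35 and -0.13, in the same order. Protease and inhibitor sums were thus both higher in AngII than in Control hearts while their ratio overlapped. The sign of the AngII against Control difference turned to -0.07 when the mean log2 level of each class was used in place of the sums, and to -0.04 without Control 3 and Control 5.

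The parts of the balance did not all follow the whole. The ADAMTS and summed protease levels of AngII+QDG again lack the Adamts7 coding transcript. ADAMTS transcripts over TIMPs stood at 0.134 ± 0.0122 in AngII+QDG, 0.152 ± 0.0217 in AngII and 0.120 ± 0.0336 in Control hearts. MMP transcripts over TIMPs stood at 0.181 ± 0.0473 in AngII+QDG, 0.252 ± 0.0588 in AngII and 0.246 ± 0.0694 in Control. With Timp3 left out of the inhibitors, the ratio was 0.721 ± 0.0759 in AngII+QDG, 0.834 ± 0.140 in AngII and 0.623 ± 0.163 in Control. AngII+QDG lay below Control with Timp3 counted and above it without (log2 differences of -0.19 and 0.25), with overlap both times.

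Pairs in which the inhibitor is known to act on the protease were also compared. Mmp2 over Timp2 was 0.618, 0.510, 0.669, 0.515 and 0.537 in the AngII+QDG hearts, 0.784, 0.676, 0.746, 0.743 and 0.990 in the AngII hearts, and 0.725, 0.592, 0.607, 0.524 and 0.723 in the Control hearts. AngII+QDG lay wholly below AngII, though the nearest hearts were 0.669 and 0.676, and Control overlapped with both. Timp2 itself differed little between those groups, while Mmp2 was lower in mean without passing the test. Mmp14 over Timp3 averaged 0.0767 ± 0.0270 in AngII+QDG, 0.108 ± 0.0302 in AngII and 0.153 ± 0.0424 in Control hearts, and AngII+QDG (highest 0.116) lay wholly below Control (lowest 0.118). Adamts1 over Timp3 averaged 0.172 ± 0.0225 in AngII+QDG, 0.211 ± 0.0349 in AngII and 0.125 ± 0.0465 in Control hearts. Control 1, at 0.202, overlapped with the angiotensin groups, and the other 4 Control hearts lay below them. Of 8 ratios over 3 comparisons looked at, the 2 named here were the ones without overlap.

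**Figure D4:**
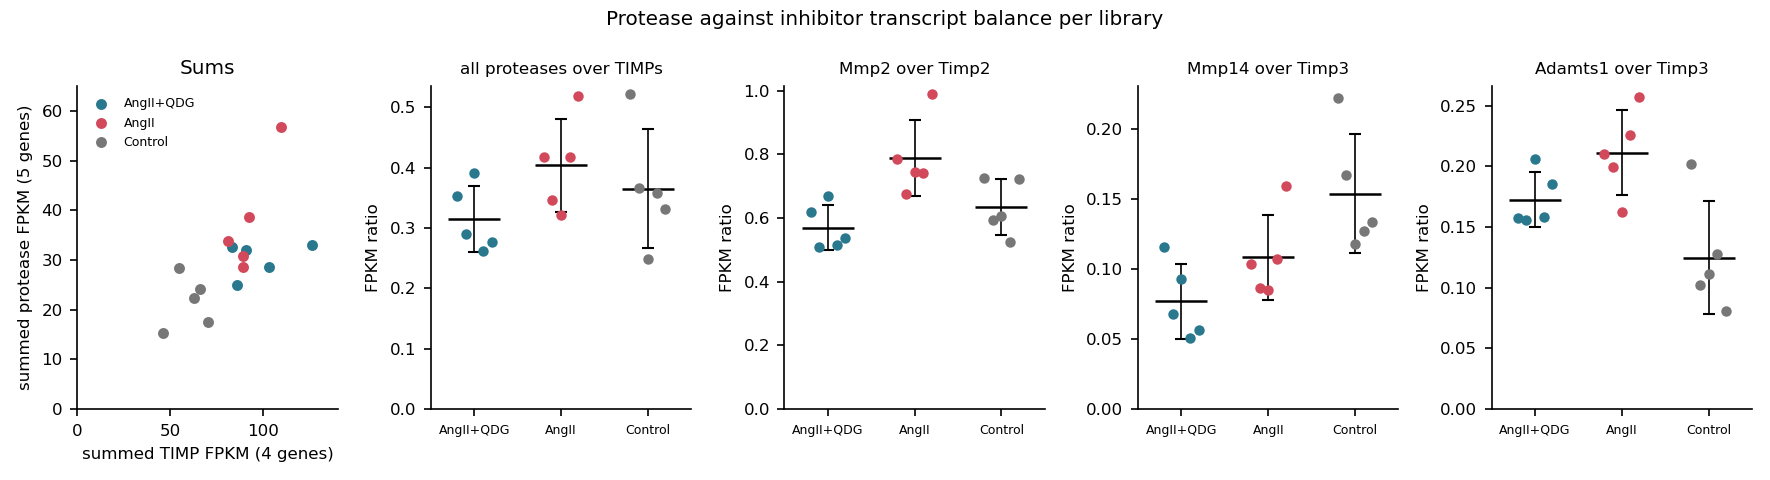
Summed protease FPKM against summed TIMP FPKM per library (left), and FPKM ratios per library with the mean ± SD of 5 (other panels, linear axes from 0), AngII+QDG left, AngII middle, Control right. The AngII+QDG protease sums lack the Adamts7 coding transcript. Control hearts lie at the lower left of the sums, the overall ratio overlaps between groups, and Mmp2 over Timp2 is lower in AngII+QDG than in AngII hearts with a narrow gap.

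Related genes were counted from fixed lists, in the fit of all 15 libraries alone. Without Control 3 and Control 5, the calls among all genes in AngII against Control fell from 1638 to 97. Which calls in these lists, and in the marker lists below, remained is not given here. Of 7 other MMPs tested, none passed the test against Control in AngII or AngII+QDG hearts, and Mmp15, a membrane-type MMP with the highest level among them, averaged 17.9 FPKM in AngII+QDG, 18.2 FPKM in AngII and 14.5 FPKM in Control. Of 8 other ADAMTS and ADAMTS-like genes, 2 were called higher in AngII than in Control, beside 11.9% of all genes. Adamts9, a proteoglycan-cleaving protease, averaged 1.84 FPKM in AngII+QDG, 2.14 FPKM in AngII and 0.526 FPKM in Control (0.98 ± 0.27 for AngII against Control, adjusted p = 0.0340). Adamtsl2, an ADAMTS-like glycoprotein without a protease domain, had 3.31, 4.87 and 1.76 FPKM in AngII+QDG, AngII and Control (1.01 ± 0.29, adjusted p = 0.0369).

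Among protease activators, Plat and Pcsk6 did not pass the test in AngII against Control. Plat, the tissue plasminogen activator, stood at 0.56 ± 0.18 (adjusted p = 0.0551) and Pcsk6, a proprotein convertase, at 0.58 ± 0.22 (adjusted p = 0.0908). Of 5 ADAM genes, membrane proteases of which ADAM10 and ADAM17 are known to be inhibited by TIMP3, 3 were called higher in AngII than in Control, beside 11.9% of all genes. Adam10 stood at 1.67 ± 0.30 (adjusted p = 0.0104), Adam17 at 1.44 ± 0.44 (adjusted p = 0.0469) and Adam9 at 1.06 ± 0.33 (adjusted p = 0.0498). None of the 3 procollagen processing genes was called.

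Of 17 substrates tested, 2 rose and 1 fell in AngII against Control, beside 11.9% of all genes called higher and 1.48% called lower. The share that rose was thus close to that of all genes. The basement membrane collagen genes Col4a1 (0.98 ± 0.26, adjusted p = 0.0306) and Col4a2 (0.88 ± 0.27, adjusted p = 0.0465) rose. Hspg2, the gene of the basement membrane proteoglycan perlecan, fell by 1.78 on the log2 scale (SE 0.49, adjusted p = 0.0322), with 1.11 FPKM in AngII+QDG, 1.73 FPKM in AngII and 10.6 FPKM in Control hearts. In AngII+QDG against Control, 16% of all genes were called higher and 3.31% lower. Called higher there were 2 of the 8 ADAMTS relatives (Adamts9 and Adamtsl3), the same 3 of 5 ADAM genes and 1 of the 17 substrates (Lum). Hspg2 was the 1 substrate called lower. No gene of these 6 lists was called between AngII+QDG and AngII.

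Markers of cell types were counted in the same comparison, in which 11.9% of all genes were called higher. Of 8 fibroblast markers, Mfap5 and Ddr2 were called higher in AngII than in Control and 6 did not pass, and the summed level of the 8 ranged over 674 to 941 FPKM in AngII+QDG, 643 to 961 FPKM in AngII and 479 to 750 FPKM in Control hearts. Of 4 activated fibroblast markers tested Postn was called higher and 3 did not pass. Summed over the 5 in the files, which include the untested Ltbp2, levels were 57.1 to 90.1 FPKM in AngII+QDG. They were 70.7 to 139 FPKM in AngII and 34.5 to 77.0 FPKM in Control. None of the fibroblast markers found in the files was at 0 in any library, while Cthrc1 of the activated list was not in both sets of files. Dcn and Lum stand in the fibroblast list and among the substrates. Of 7 endothelial markers none was called in AngII against Control, and their sums ranged over 142 to 192, 164 to 221 and 105 to 191 FPKM in AngII+QDG, AngII and Control hearts. Of 7 markers each, 1 was called higher for cardiomyocytes (Ryr2, adjusted p = 0.0222), 1 for mural cells (Rgs5, adjusted p = 0.0408) and 1 for macrophages (Cd163, adjusted p = 0.0290). The other 6 of each list did not pass and went in both directions. In that order, the median log2 fold changes of the lists were 0.04, 0.24 and 0.08, beside 0.20 for all genes. Mean summed levels were 24064, 209 and 132 FPKM in AngII, and 25588, 163 and 150 FPKM in Control hearts. The part of any of these cell types in the changes of the 9 genes was not tested.

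The genes with the most similar profiles were found among 9216 coding genes by the root mean square difference of centred log2(FPKM + 1) over the 15 libraries. For Timp3 these were Klhl2 (0.168) and Flt1 (0.174), and for Mmp2 they were Col6a1 (0.129) and Dbn1 (0.138). For Adamts1 they were Slc38a2 (0.270) and Rnd3 (0.279), and for Adamts7 they were Lgals1 (0.246) and mt-Nd3 (0.247). Col6a1 averaged 14.9 FPKM in AngII+QDG, 19.8 FPKM in AngII and 12.9 FPKM in Control hearts. Flt1 averaged 21.6, 18.7 and 10.9 FPKM in AngII+QDG, AngII and Control. Both were picked for closeness over these same libraries, so sharing the order of groups with Mmp2 or Timp3 follows from the choice. The Adamts7 gene sums rest on unequal transcript lists, which limits the neighbours named for it.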

How the data were processed

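Hearts of 15 male mice in 3 groups of 5 were sequenced. The authors deposited 1 table per library, whose unit was read from the values as FPKM per transcript, already normalized to length and depth, since the headers name no unit. Per the submitters' processing notes the build was GRCm38 and limma was used. The aligner and quantifier are not stated there. GENCODE M21 named 24756 transcripts, and these were summed to 12391 genes listed in every file. AngII and Control files listed 31685 transcripts and AngII+QDG files 31734, with 29996 shared. FPKM times length lay within 0.1 of a whole step for 97.0 to 97.3% of transcripts above 0, which gave depth and recovered fragments. No pair of libraries held identical values (0 pairs).

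Tests covered the 12267 genes that reached 0.5 FPKM in 5 or more libraries, all 9 members included. Values were log2(FPKM + 1), which understates the change of low genes. They were fitted with limma 3.58.1 (intensity trend, robust) in R 4.3.3 over all 15 libraries, leaving 12 residual degrees of freedom. Benjamini-Hochberg adjustment ran over all genes, with a threshold of 0.05. Single transcripts were tested the same way. Library measures were put to two-sided exact permutation tests. Promoters came from RefSeq, and tables and plots from Python 3.11.15 with pandas 2.3.3 and matplotlib 3.10.9.

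All members found were named in every comparison. Of each other list, counts ran over all tested genes, and up to 3 were eligible for naming by the smallest p in AngII against Control and in AngII+QDG against AngII, of which some are given and 1 result is not reported here. For each called member the 2 coding genes closest in profile were named. Members, lists, tests and alternatives were chosen with earlier results of these data known. Alternatives covered the pseudocount, filter, scaling, fit, replicate block, sample weights, transcript set, length trend, short-against-long covariate, voom and libraries left out. The steps were tested on simulated data, in the order AngII against Control, AngII+QDG against AngII, AngII+QDG against Control. Of changes of 1 on the log2 scale, 64%, 71% and 80% were recovered. Of changes of 2, it was 95%, 92% and 89%. Unchanged genes that were called numbered 2, 8 and 9. A gene that did not pass the test can therefore still have changed by 1 log2. Whether the recovered percentages and the numbers of unchanged genes called hold for the heart libraries, which differed in short-against-long balance, was not tested. Differences in these values between the comparisons were not tested either.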

Additional observations from a re-analysis of the deposited data

Results flagged for a closer look

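Of 51 groups of 5 values looked at, 3 held a heart far from the other 4 by Dixon's criterion (critical value 0.71), which chance gives in about 1 group in 20. Timp1 in AngII+QDG 1 was 1.37 FPKM, below the 2.26 to 2.58 FPKM of the other AngII+QDG hearts. Mmp14 in AngII 5 was 8.64 FPKM, above the 3.86 to 5.23 FPKM of the other AngII hearts. The log2 ratio of Mmp14 over Timp2 in the same AngII 5 heart was -1.76, above -2.38 to -2.23 in the others. Without AngII 5, Mmp2 was no longer called in AngII against Control.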

How the results depend on the processing

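Genes called in AngII against Control numbered 1638 as reported, 819 after quantile normalisation, 1076 after median scaling, 317 in a fit of the 2 groups alone, 846 with each library's length trend removed, 97 without Control 3 and Control 5, 0 with the short-against-long covariate, and 316 to 2484 with single libraries left out. The count moved by over 1.5 times with 1 Control heart out (982 without Control 2, 702 without Control 3, 2484 without Control 4, 793 without Control 5) and with 1 AngII heart out (878 without AngII 1, 316 without AngII 2, 474 without AngII 4, 504 without AngII 5). Members called were 4 as reported, 2 without Control 3 and Control 5, 0 with the covariate and 3 to 5 with single libraries left out. In AngII+QDG against AngII, 1 gene in place of 0 was called with a pseudocount of 0.1, sample weights, the covariate or voom, and 0 to 1 with single libraries left out. In AngII+QDG against Control, 2374 genes became 1438 in a fit of 2 groups, 1529 with the length trend removed, 1199 without Control 3 and Control 5, 0 with the covariate, and 1452 (without AngII+QDG 1) to 3022 with single libraries left out, while the 3 members called became 0 with the covariate alone. The cause was not tested, and against Control the covariate fit cannot separate the measure from group.

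The protease to TIMP difference in log2 spanned 0.04 to 0.31, -0.44 to -0.26 and -0.32 to -0.05 with single libraries left out, in the order AngII against Control, AngII+QDG against AngII, AngII+QDG against Control. It moved to -0.046 for AngII+QDG against AngII with mean log2 levels, and to 0.20 (ADAMTS alone) and 0.25 (Timp3 left out) for AngII+QDG against Control. Signs turned for changes that were not called. With the covariate, AngII against Control gave -0.22 for Timp2 and -0.068 for Mmp14, and AngII+QDG against Control gave -0.26 for Timp2, -0.31 for Mmp2, -0.37 for Mmp14 and -0.19 for Adamts2. Mmp14 in AngII+QDG against Control was also -0.15 under both scalings, -0.036 with sample weights, -0.059 without Control 3 and Control 5, and -0.00082 to 0.18 with single libraries left out. In AngII+QDG against AngII, Timp2 was -0.041 with the covariate and -0.041 to 0.10 with single libraries left out. Timp4 was 0.048 after quantile normalisation, 0.054 with sample weights, 0.062 with the covariate and -0.094 to 0.093 with single libraries left out. Adamts1 was -0.17 to 0.038 with single libraries left out, and Adamts7 was 0.11 on transcripts listed in all files.

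With the replicate number as a block, 516 genes and 3 members were called in AngII against Control. Deviations of libraries with the same number correlated by -0.096 to 0.087. This alone cannot show whether hearts with the same number were handled together, which was not tested. The planned edgeR test on recovered fragments was not run, and the voom fit on those fragments was run in its place. Depth limits Adamts7 and Timp1 most, with as few as 37 and 63 recovered fragments in a library, and intervals cover the spread between these hearts and not the difference in short-against-long balance.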
